A study of Rattus norvegicus with 12 samples.

Results

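Serum microRNAs of rats given dextromethorphan alone were compared directly with those of rats given caffeine alone, 3 libraries against 3, without the control group entering the contrast. Dextromethorphan is a cough suppressant that blocks NMDA receptors, and caffeine is a stimulant that blocks adenosine receptors. All libraries came from male Sprague-Dawley rats (Jcl:SD) of 7 weeks. Each drug was given as a single oral dose dissolved in sterile distilled water. The caffeine group had 180 mg/kg caffeine, and the dextromethorphan group had 200 mg/kg dextromethorphan hydrobromide monohydrate. Of the other 6 libraries of the series, 3 came from controls given the water alone and 3 from rats given both drugs, with dextromethorphan 1 h after caffeine at the same doses. They enter the fit through the estimate of spread, and their levels are given for reference. Blood was drawn 1 h after dextromethorphan, and for caffeine alone the labels give no separate time. The study's design had 5 rats in each group. Since the labels tie no library to an animal of its own, p-values cover the spread among these libraries, which may be technical. In serum, RNA from more cells and more RNA from each cell cannot be told apart. Libraries are named as in the table columns (CAF3, CAF4, CAF5, DEX1, DEX2 and DEX3).

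The microRNAs described are the 479 mature names, of 752 in the table, that were above 0 in at least 3 of the 12 libraries. At the edge of this rule, 24 names were above 0 in exactly 3 libraries, with mean levels up to 39.2 FPKM, and 25 names just outside it were above 0 in exactly 2, with mean levels up to 16 FPKM. FPKM here is the number of reads on a microRNA per kilobase of its length and scaled to the reads on all listed microRNAs, so every value is relative to the others in its library. Of the 479 names, 366 also reached a mean of 80 FPKM and were tested. They held 99.991% of all FPKM.

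MicroRNAs are short RNAs that, loaded on Argonaute proteins, bind messenger RNAs mainly through bases 2 to 8, the seed. Those in serum are released from blood cells, vessel wall and organs, in vesicles or bound to protein, and several are made almost wholly by one kind of tissue. The miR-200 family (miR-200a, miR-200b, miR-200c, miR-141 and miR-429) is known from epithelia, where it represses the ZEB factors. miR-192 and miR-194 are abundant in gut, kidney and liver, miR-375 in the islets of the pancreas and in gut endocrine cells, and miR-1 with its relatives miR-206 and miR-133a in striated muscle.

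In these libraries 9 of the 366 microRNAs tested were higher after dextromethorphan than after caffeine, which is 2.46%, and none was lower (0%). The 9 were 6 members of the miR-200 family of epithelia, miR-192-5p and miR-194-5p of gut, kidney and liver, and miR-375-3p of islets and gut endocrine cells. The tissue they came from was not tested. The muscle microRNAs lay on the other side, with levels after dextromethorphan below those after caffeine, but none of them passed. Passing means an adjusted p under 0.05 in limma, a linear model over the 4 groups on log2(FPKM + 40), with Benjamini-Hochberg adjustment over the 366. Folds are on that scale, which understates changes at low levels. A rise or a fall here is against caffeine, not against the controls. Members and lists were chosen with earlier results of these data known.

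The mature sequences of microRNAs on which the comparison turns, from the RefSeq table of assembly GRCr8, are shown 5′ to 3′ with the seed in capitals. The first 6 passed, and the last 4 are the miR-200 family member just outside the threshold and 3 of striated muscle.
miR-194-5p: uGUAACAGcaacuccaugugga
miR-192-5p: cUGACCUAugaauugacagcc
miR-375-3p: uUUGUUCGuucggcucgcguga
miR-141-3p: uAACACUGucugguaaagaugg
miR-200b-5p: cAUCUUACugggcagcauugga
miR-200a-5p: cAUCUUACcggacagugcugg
miR-200c-3p: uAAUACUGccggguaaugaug
miR-1-3p: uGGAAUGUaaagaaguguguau
miR-206-3p: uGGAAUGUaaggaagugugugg
miR-133a-3p: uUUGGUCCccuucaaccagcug

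The 6 passing sequences carry 5 distinct seeds. miR-200a-5p and miR-200b-5p share the seed AUCUUAC and are identical at 16 of the 21 positions compared from the 5′ end. miR-1-3p and miR-206-3p share the seed GGAAUGU and are identical at 19 of 22 positions. Of the 366 microRNAs tested, 338 had a sequence in that table, and of the 479 described, 442. miR-200b-3p, miR-200a-3p and miR-429 also passed and are described by their values.

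The depth differed between the groups. Reads on the listed microRNAs, recovered from the FPKM, numbered 1504963 to 1842796 after caffeine and 403913 (DEX3), 443564 (DEX2) and 895792 (DEX1) after dextromethorphan. The groups did not overlap, and the two-sided exact permutation p was 0.1, the smallest that 3 against 3 libraries can give (adjusted 0.21 over 21 quantities, as for each exact p of 0.1 given here; an exact p of 0.2 became 0.28). For a length of 22 nucleotides, 1 read was worth 24.7 to 30.2 FPKM after caffeine, 50.7 in DEX1, 102 in DEX2 and 113 in DEX3. On the second principal component of all 12 libraries DEX2 and DEX3 stood apart, at 12.74 and 10.75 against at most 1.58 in any other. An index of red-cell RNA, miR-451-5p (made in red cells) over miR-23a-3p on the log2 scale, was -5.61 ± 0.74 after dextromethorphan and -6.74 ± 0.35 after caffeine (SD, n = 3; exact permutation p = 0.2). DEX2, at -5.12, and DEX3 were again the highest, and DEX1, at -6.46, lay within the caffeine range. The part of depth and of red-cell RNA in the results below was not tested apart from the values printed beside them.

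**Figure D1:**
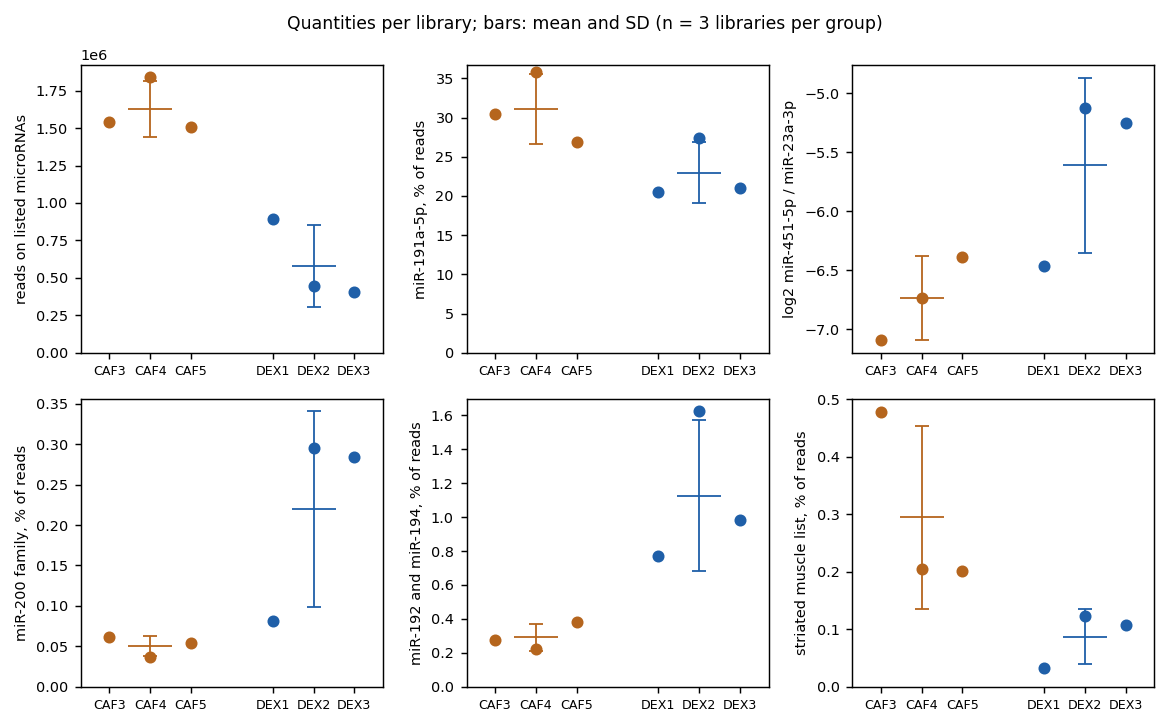
Quantities in each of the 3 caffeine libraries (brown) and 3 dextromethorphan libraries (blue), with group mean and SD (n = 3). The panels show reads, miR-191a-5p as % of reads, the log2 index of red-cell RNA, and the summed % of reads of the miR-200 family, of miR-192 with miR-194, and of the striated muscle list. DEX1 is the deepest dextromethorphan library, and in the index and the miR-200 family it lies nearest to the caffeine libraries.

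miR-194-5p had the largest fold among those that passed with a level above the median. It was 29126 FPKM in DEX1, 73578 in DEX2 and 59531 in DEX3, against 6970, 5951 and 10700 in CAF3, CAF4 and CAF5. All 3 dextromethorphan libraries lay above all 3 caffeine libraries, and also above the controls (4234 to 6026) and the rats given both drugs (8028 to 12112). It rose 6.57-fold (3.93 to 11.0, the 95% interval, with 3 libraries in each group; limma adjusted p = 0.000353). It is encoded at 2 loci of build rn6, chromosome 1 from 221634800 to 221634821 beside miR-192, and chromosome 13 from 103250590 to 103250611, which were summed here.

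miR-192-5p, the most abundant of the 9, was 336051 FPKM in DEX1, 694358 in DEX2 and 402118 in DEX3. In the caffeine libraries it was 122309, 100089 and 168269, so the groups did not overlap. It rose 3.57-fold (2.22 to 5.76, limma adjusted p = 0.00475). The summed share of miR-192 and miR-194 was 0.0969% to 0.176% of reads in controls and 0.224% to 0.379% after caffeine. The mature strand is encoded on chromosome 1 from 221634994 to 221635014. For every 100 reads of miR-192-5p there were 11.9 ± 3.29 of miR-194-5p after dextromethorphan and 6.29 ± 0.35 after caffeine (SD, n = 3), with each dextromethorphan library (9.08 to 15.5) above each caffeine library (5.97 to 6.66). In the controls this ratio ran from 7.71 to 10.7. The other strands of the 2 hairpins had log2 fold changes of 1.52 ± 0.44 (SE) for miR-192-3p (limma adjusted p = 0.0947) and 1.38 ± 0.50 for miR-194-3p (0.223), and did not pass; they rest on 6 to 18 reads in each of these 6 libraries. Of the 4 tested names at this locus 2 rose and 2 did not pass, where 2.46% of all 366 passed. Their median log2 fold change was 1.68 against 0.12 over all 366.

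miR-375-3p was 25118 FPKM in DEX1, 34842 in DEX2 and 53004 in DEX3, and 7856, 5402 and 11417 after caffeine. It rose 4.56-fold (2.68 to 7.74, limma adjusted p = 0.00327), and all 3 dextromethorphan libraries were above all 9 others. Its levels in controls, 4772 to 9937 FPKM, overlapped with those after caffeine. It lies on chromosome 9 from 82161725 to 82161746. The other tested members of the endocrine and pancreas list, miR-7a-5p and miR-148a-3p, did not pass.

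Of the 8 tested members of the miR-200 family 6 rose, none fell and 2 did not pass, where 9 of all 366 (2.46%) passed. The ninth, miR-200c-5p, was below the level tested. The log2 fold changes ran from 1.61 to 3.02 with a median of 1.91, and in 7 of the 8 the groups did not overlap, against 45 of all 366 (12.3%) with every dextromethorphan library above every caffeine library. Together the family took 0.220% ± 0.121 of reads after dextromethorphan and 0.0507% ± 0.0123 after caffeine (SD, n = 3; exact permutation p = 0.1). Within the dextromethorphan group DEX1 had 0.0807%, DEX2 0.295% and DEX3 0.284%, so the spread inside the group was wide. The share of the family was 0.0266% to 0.0381% in controls and 0.0370% to 0.0609% after caffeine, which overlap.

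A single stretch of 1877 bases on chromosome 5, from 173488342 to 173490218, holds 5 tested names of the family. All 5 passed, where 2.46% of all 366 did. miR-200b-3p was 6747 FPKM in DEX1, 24995 in DEX2 and 17976 in DEX3, against 4464, 2642 and 4131 after caffeine. It rose 3.93-fold (2.10 to 7.37, limma adjusted p = 0.0182). miR-429 was 8525, 25619 and 19919 FPKM after dextromethorphan and 4342, 2935 and 5255 after caffeine, a rise of 3.99-fold (2.25 to 7.09, limma adjusted p = 0.0103). The dextromethorphan libraries were above the caffeine libraries for each, by a small margin in DEX1. There were 108 ± 11.6 reads of miR-429 per 100 of miR-200b-3p after dextromethorphan and 107 ± 14.3 after caffeine (SD, n = 3), a difference within the spread.

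miR-200a-3p was 5531 FPKM in DEX1, 16191 in DEX2 and 17105 in DEX3, and 3633, 2393 and 3775 after caffeine. It rose 3.57-fold (1.93 to 6.61, limma adjusted p = 0.0223). The 5p strands are the less abundant products of the same hairpins. miR-200b-5p was 1979, 6661 and 5739 FPKM after dextromethorphan and 1152, 493 and 1042 after caffeine, a rise of 4.84-fold (2.41 to 9.73, limma adjusted p = 0.0153). miR-200a-5p had the largest fold of all, 8.09 (3.01 to 21.7, limma adjusted p = 0.0203), but rests on 5, 14 and 7 reads after dextromethorphan and 4, 1 and 1 after caffeine.

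The other pair of the family, on chromosome 4 from 157236361 to 157236810, lay across the threshold. miR-141-3p was 3450 FPKM in DEX1, 11887 in DEX2 and 11704 in DEX3, and 3042, 2023 and 1993 after caffeine, a rise of 3.36-fold (1.77 to 6.36, limma adjusted p = 0.0420). miR-200c-3p, the most abundant of the family, was 9888, 47129 and 56825 FPKM after dextromethorphan and 11077, 6253 and 8353 after caffeine. DEX1 lay inside the caffeine range, and the log2 fold change of 1.83 ± 0.48 (SE) did not pass (limma adjusted p = 0.0594). miR-141-5p, with 6 to 9 reads in each of the 6 libraries, did not pass either (1.61 ± 0.47, adjusted p = 0.0947).

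**Figure D2:**
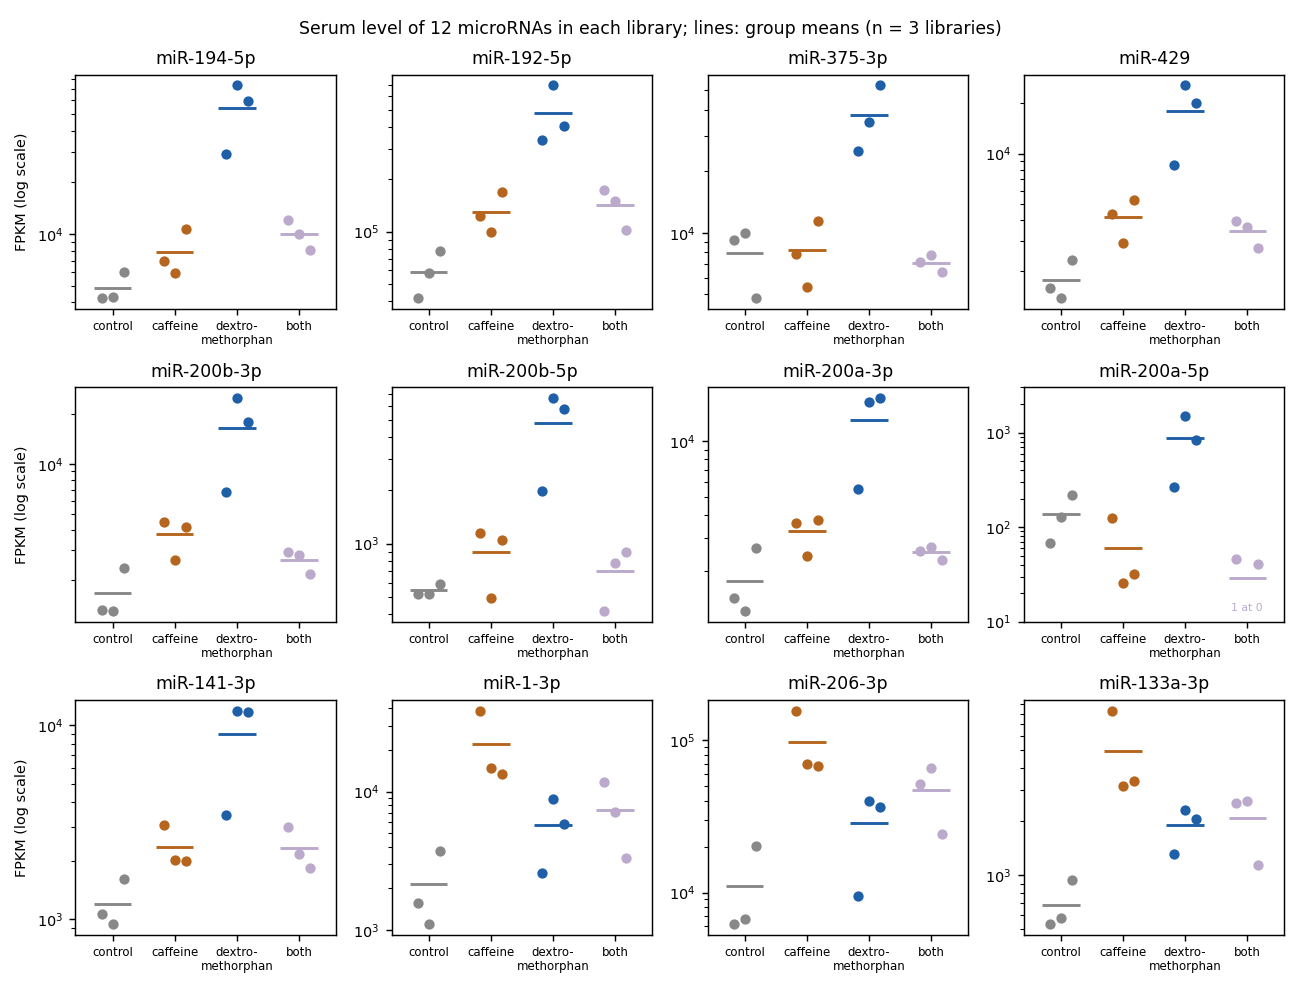
FPKM (log axis) of the 9 microRNAs that rose and of 3 muscle microRNAs, 1 point per library and 1 line per group mean (n = 3 libraries), in controls, after caffeine, after dextromethorphan and after both drugs. In the first 9 panels the 3 dextromethorphan points are above all 9 others, with DEX1 the lowest of them. In the 3 muscle panels the caffeine points are above the dextromethorphan points.

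DEX1 was the lowest dextromethorphan library for each of the 9. Without DEX2 and DEX3 none of the 366 passed with limma (32 had an unadjusted p under 0.05), and with DEX1 as the only dextromethorphan library its spread is assumed to be like that of the other groups. The log2 fold changes were then 1.93 for miR-194-5p (limma adjusted p = 0.0682), 1.67 for miR-375-3p (0.173) and 1.40 for miR-192-5p (0.181). Those of the miR-200 family had a median of 0.88, with miR-200b-3p at 0.88 and miR-141-3p at 0.57. Without DEX1, by contrast, 27 passed, 25 higher and 2 lower, among them all 8 tested members of the family. Leaving out DEX2, DEX3 or CAF4 alone left 3 passing, which were miR-192-5p, miR-194-5p and miR-375-3p each time, and leaving out CAF5 left 5, these with miR-200b-5p and miR-429.

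The fit with the index of red-cell RNA as a covariate gave no passing microRNA with limma (24 had an unadjusted p under 0.05). In it the log2 fold change was 1.94 for miR-194-5p (adjusted p = 0.124), 1.50 for miR-375-3p (0.582) and 1.22 for miR-192-5p (0.582), and the median of the miR-200 family was 1.19. When all libraries were thinned to the depth of the shallowest, 4 passed: miR-194-5p (log2 fold change 2.88, limma adjusted p = 0.000226), miR-192-5p, miR-375-3p and miR-429. A fit to the 6 single-drug libraries alone passed the first 3 of these.

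**Figure D3:**
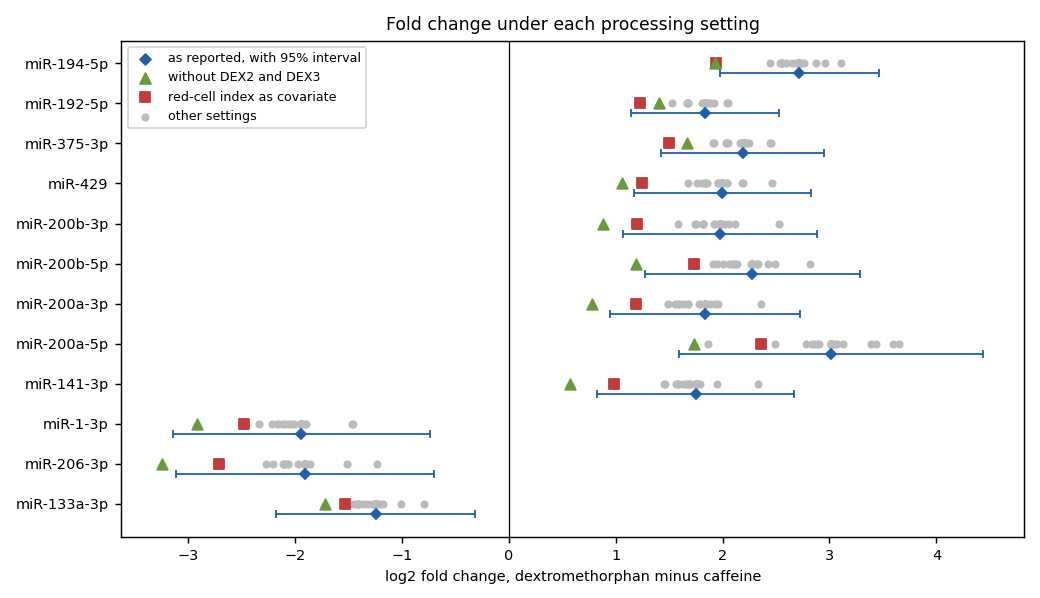
Log2 fold change, dextromethorphan minus caffeine, of the same 12 microRNAs as reported (blue diamonds, with 95% interval), without DEX2 and DEX3 (green), with the red-cell index as covariate (red) and under the other settings (grey). No point crosses 0. The miR-200 family moves closest to 0 without DEX2 and DEX3, and the muscle microRNAs move away from it.

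MicroRNAs of striated muscle pointed the other way. Of 5 tested members none passed in either direction, where 2.46% of all 366 passed. The median log2 fold change was -1.60 against 0.12 over all 366. In 4 of the 5 every dextromethorphan library was below every caffeine library (17 of all 366, 4.64%, were). miR-206-3p, made in skeletal muscle, was 156286 FPKM in CAF3, 69854 in CAF4 and 67841 in CAF5, and 9540, 40222 and 36687 after dextromethorphan. Its log2 fold change was -1.90 ± 0.57 (SE; a 3.74-fold lower level, 95% interval 1.62 to 8.62; limma adjusted p = 0.0947). miR-1-3p, shared by heart and skeletal muscle, was 38350, 14923 and 13507 FPKM after caffeine and 2588, 8813 and 5852 after dextromethorphan, with a log2 fold change of -1.94 ± 0.57 (3.84-fold lower, 1.67 to 8.84; limma adjusted p = 0.0947). CAF3 was the highest library for each and DEX1 the lowest of the 6.

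The controls lay lower still for the muscle microRNAs, at 1108 to 3727 FPKM for miR-1-3p and 6221 to 20169 for miR-206-3p. DEX2 and DEX3 were above all 3 controls for each, while DEX1 was within the range of the controls. miR-133a-3p, encoded in the same transcripts as miR-1, was 8279, 3141 and 3353 FPKM after caffeine and 1319, 2323 and 2063 after dextromethorphan (log2 fold change -1.24 ± 0.44, limma adjusted p = 0.201). miR-1b, identical to miR-1-3p at 21 of 22 positions so that reads can be shared, had -1.60 ± 0.63 (adjusted p = 0.244). miR-499-5p was 30.9 to 221 FPKM after caffeine and 53.2 to 236 after dextromethorphan, and overlapped.

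There were 21.7 ± 5.59 reads of miR-1-3p per 100 of miR-206-3p after dextromethorphan and 21.9 ± 2.37 after caffeine (SD, n = 3), so the 2 kept the same proportion within the spread. Reads of miR-133a-3p per 100 of miR-1-3p were 37.5 ± 12.5 after dextromethorphan and 22.5 ± 2.04 after caffeine (SD, n = 3). In that ratio the groups did not overlap (26.4 to 51.0 against 21.0 to 24.8). With median-of-ratios scaling, which moves the median of all 366 from 0.12 to -0.04, miR-1-3p and miR-206-3p passed as lower (limma adjusted p = 0.0457 each). Over the alternatives tried the adjusted p ran from 0.0457 to 0.582 for miR-1-3p and from 0.0457 to 0.555 for miR-206-3p. Without DEX2 and DEX3 their log2 fold changes were -2.91 and -3.24, and without DEX1 -1.46 and -1.24, so the differences were largest with DEX1 alone.

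**Figure D4:**
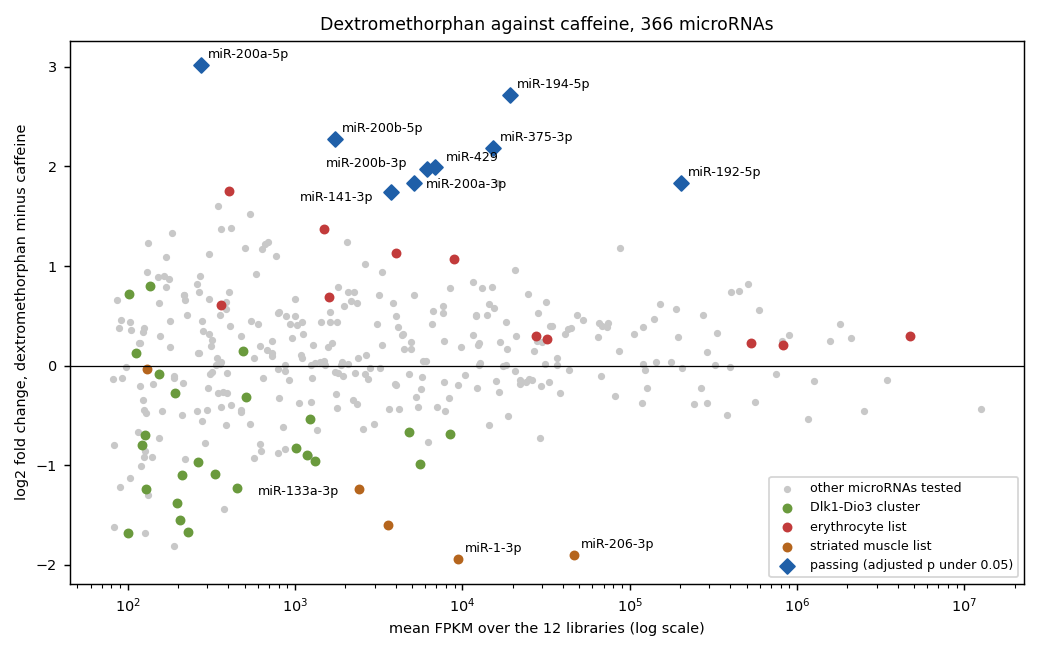
Log2 fold change, dextromethorphan minus caffeine, against the mean FPKM over 12 libraries (log axis) for the 366 microRNAs tested; blue diamonds passed, and points of the erythrocyte, striated muscle and Dlk1-Dio3 lists are coloured. The 9 that passed lie between 1.75 and 3.02, and no microRNA below 0 passed.

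Members of the Dlk1-Dio3 imprinted cluster, microRNAs expressed from the maternal allele and known from muscle, brain and placenta, were mostly at lower values after dextromethorphan. None of the 25 tested names on the list used here passed, where 2.46% of all 366 did. Of the 25, 21 had a log2 fold change below 0, and the median was -0.83. Over all 366, 214 (58.5%) were above 0. The list leaves out miR-299a-3p (-1.82), miR-673-5p (-1.22) and miR-1188-5p (0.66), which were tested and lie in the same region. In 6 of the 25 every dextromethorphan library was below every caffeine library, as in 4.64% of all 366, and in none was the order the opposite. miR-409a-3p was 11371, 10093 and 6611 FPKM after caffeine and 3182, 5974 and 5075 after dextromethorphan (log2 fold change -0.99 ± 0.42, SE, limma adjusted p = 0.291). miR-494-3p had 13, 23 and 11 reads after caffeine and 4, 1 and 1 after dextromethorphan (-1.38 ± 0.53, adjusted p = 0.243). After thinning, which left 26 members tested, 18 were below 0 and the median was -0.66.

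MicroRNAs of red cells lay on the same side as the 9 that passed, without passing. All 11 tested members of the erythrocyte list had log2 fold changes above 0, from 0.21 to 1.75 with a median of 0.61. None passed, where 2.46% of all 366 did. With quantile normalization 10 of 11 were above 0, miR-92a-3p being at -0.14. Without DEX2 and DEX3 9 of 11 were above 0. The count was also 9 of 11 with the red-cell covariate, which is built in part from miR-451-5p of this list. Their summed share of reads was 12.9% to 15.4% after dextromethorphan and 11.4% to 12.1% after caffeine (exact permutation p = 0.1). miR-451-5p, the most specific red-cell microRNA, was 4871, 7378 and 8215 FPKM after dextromethorphan and 2599, 2997 and 3559 after caffeine. The groups did not overlap, and its log2 fold change was 1.13 ± 0.33 (SE, limma adjusted p = 0.0947). miR-144-3p and miR-144-5p, encoded beside miR-451 on chromosome 10, had 1.75 ± 0.72 (adjusted p = 0.264) and 1.37 ± 0.46 (0.174), with DEX1 inside the caffeine range for each. miR-16-5p, abundant in red cells and elsewhere, was 9.95% to 12.3% of reads after dextromethorphan and 8.99% to 9.57% after caffeine (log2 fold change 0.30 ± 0.20, adjusted p = 0.544). No tested member of this list was at 0 in any of the 6 libraries.

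Leukocyte microRNAs gave no passing member of 15, where 2.46% of all 366 passed. Their median log2 fold change was 0.07. The settings that turned the sign of this median included median-of-ratios scaling (-0.07), quantile normalization (-0.16) and rescaling without miR-191a-5p (-0.07). Others were the red-cell covariate (-0.32) and the fit without DEX2 and DEX3 (-0.48). Over all alternatives it ran from -0.48 to 0.25. miR-142-3p, found in all blood-forming lineages, was nearest, at 72376, 183788 and 179494 FPKM after dextromethorphan and 67631, 42480 and 70592 after caffeine (1.19 ± 0.33, SE, limma adjusted p = 0.0876); DEX1 was 72376 against 70592 in CAF5. miR-223-3p, of neutrophils and platelets, had -0.45 ± 0.22 (adjusted p = 0.342), and miR-150-5p, of lymphocytes, -0.54 ± 0.31 (0.479). For the last, the libraries after caffeine ran from 854347 to 1765540 FPKM and those after dextromethorphan from 663151 to 1044430. These overlap.

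Liver microRNAs did not pass in any of 11 tested, where 2.46% of all 366 passed. Their median was 0.50. miR-122-5p, by far the most abundant microRNA inside hepatocytes, took 10.5%, 6.71% and 10.8% of reads after caffeine and 15.1%, 6.37% and 5.89% after dextromethorphan. The highest and the lowest library were thus of the same group, and the log2 fold change of -0.14 had a 95% interval of -0.97 to 0.69 (limma adjusted p = 0.915). No difference was detectable at this spread. miR-802-5p, a second hepatocyte microRNA, was 957, 1610 and 1061 FPKM after dextromethorphan and 588, 258 and 791 after caffeine; the groups did not overlap, and its log2 fold change of 1.18 ± 0.53 did not pass (adjusted p = 0.326). miR-101b-3p had 0.72 ± 0.26 (adjusted p = 0.223).

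**Figure D5:**
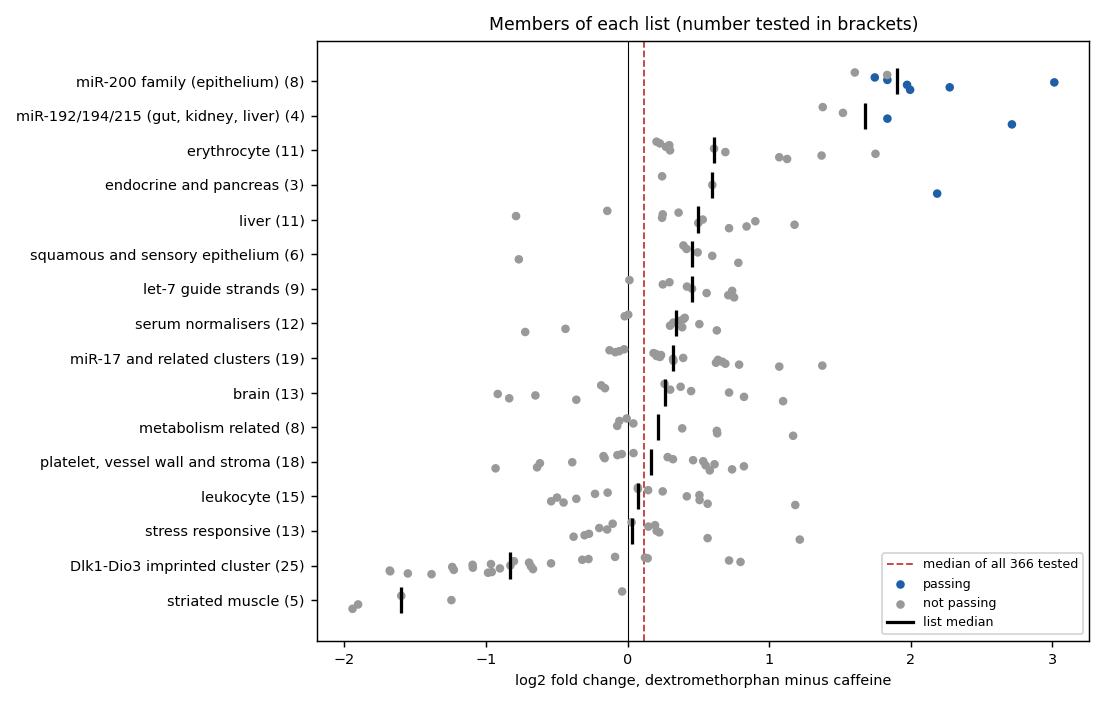
Log2 fold change, dextromethorphan minus caffeine, of every tested member of the 16 lists, ordered by list median (black bars), with passing members in blue and the median of all 366, 0.12, as a dashed line. The miR-200 family and the list of miR-192 and miR-194 are farthest to the right, with medians of 1.91 and 1.68, and striated muscle farthest to the left at -1.60.

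Let-7 microRNAs, which are abundant in most tissues and rise with differentiation, had log2 fold changes from 0.01 to 0.75 in all 9 members with a median of 0.46, and none passed; 7 of 9 were above 0 with quantile normalization and also without DEX2 and DEX3, and 8 of 9 with median-of-ratios scaling and with rescaling without miR-191a-5p. Their near-identical sequences share reads, which makes single members uncertain. let-7a-5p, at 0.75 ± 0.28 (SE, limma adjusted p = 0.223), and let-7i-5p, at 0.56 ± 0.23 (0.265), each had DEX1 inside the caffeine range. No member passed in the lists of squamous and sensory epithelium (0 of 6, median 0.46), platelet, vessel wall and stroma (0 of 18, 0.16), brain (0 of 13, 0.26), the miR-17 clusters (0 of 19, 0.32), serum normalisers (0 of 12, 0.34), stress-responsive (0 of 13, 0.03) or metabolism-related microRNAs (0 of 8, 0.21). With 2.46% of all 366 passing, a count of 0 in a list of such a size gives no result about the list. The sign of some of these medians turned: that of the stress-responsive list with median-of-ratios scaling (-0.13), quantile normalization (-0.13) and rescaling without miR-191a-5p (-0.13), and without DEX1 (-0.0032). For the platelet, vessel wall and stroma list it turned with quantile normalization (-0.11), without miR-191a-5p (-0.12) and without DEX1 (-0.21). It turned for brain after thinning (-0.15), and for squamous and sensory epithelium without DEX2 and DEX3 (-0.18). Not every such setting is named. Over all alternatives the median ran from -0.13 to 0.28 for the stress-responsive list and from -0.19 to 0.40 for brain. For platelet, vessel wall and stroma it ran from -0.21 to 0.55. In the squamous and sensory epithelium list 5 of 6 members were above 0, among them miR-183-5p (0.78), miR-182 (0.50) and miR-203a-3p (0.39). The 1 below 0 was miR-205, the keratinocyte microRNA, at -0.77 ± 0.48 (limma adjusted p = 0.538). miR-143-3p, of smooth muscle, reached 3.97% of reads in DEX1 against 0.694% in DEX2 and 1.35% in DEX3, and 0.536% to 1.19% after caffeine (0.82 ± 0.56, adjusted p = 0.552).

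The most abundant serum microRNA, miR-191a-5p, took 20.5%, 27.4% and 21.0% of reads after dextromethorphan and 30.4%, 35.8% and 26.9% after caffeine. The groups overlapped by DEX2 and CAF5, and the exact permutation p was 0.2. The 10 most abundant names together held 67.6% ± 1.84 and 73.1% ± 0.94 of reads (SD, n = 3; exact permutation p = 0.1), so all the other names held a larger part after dextromethorphan. miR-30c-5p, which has been used as a serum normaliser, was 19560 to 22578 FPKM after dextromethorphan and 30840 to 42295 after caffeine, without overlap (-0.72 ± 0.26, SE, limma adjusted p = 0.213). Rescaling without miR-191a-5p left 383 names tested in place of 366. The median of all tested moved with it from 0.12 to -0.07, and the share of names above 0 from 58.5% to 47.0%. With median-of-ratios scaling, over the 366, that share was 47.8%. In either case the miR-200 family members and miR-192-5p, miR-194-5p and miR-375-3p all stayed above 0.

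Beyond the 9, 7 further microRNAs had an adjusted p under 0.1: miR-200c-3p, miR-142-3p, miR-192-3p, miR-141-5p and miR-451-5p with higher, and miR-1-3p and miR-206-3p with lower values after dextromethorphan. In all 55 of 366 (15.0%) had an unadjusted p under 0.05, 45 higher and 10 lower. The precision differs widely: the median standard error was 0.43 on the log2 scale, and 98 microRNAs (26.8%) had a 95% interval narrow enough to lie within 2-fold in each direction. The median SD of log2 values between libraries was 0.57 after dextromethorphan and 0.36 after caffeine.

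Of the 479 microRNAs, 113 were too low to test, with at most 8 reads in any of the 6 single-drug libraries, and 4 of these were at 0 in all 6. The number with reads in more caffeine than dextromethorphan libraries was 61, against 24 the other way and 28 equal; the caffeine libraries were also the deeper ones. miR-1247-3p, miR-191b, miR-337-5p, miR-363-5p and miR-376b-5p had reads in all 3 caffeine libraries and none after dextromethorphan, with 5 to 11 reads summed over the caffeine libraries. miR-9a-3p had reads in all 3 dextromethorphan libraries and none after caffeine, at 0.99, 0.99 and 2.01 reads. At such counts no difference was detectable.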

How the data were processed

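Small RNA from 200 uL of serum was extracted with the miRNeasy Micro Kit and made into libraries with the QIAseq miRNA kit, whose primers carry unique molecular indices, per the labels' protocols. No source states whether reads were collapsed by index. The authors deposited FPKM per mature microRNA; the submitters' processing notes name STAR 2.7.10a, cutadapt 3.7, Subread 2.0.1 with featureCounts, the package DESeq2 1.20.0 and build rn6, without their roles. In each column FPKM times length summed to a constant, so values are relative to reads on listed microRNAs. Column names gave the group, but their numbers did not match the sample titles.

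Here the 836 rows were summed to 752 names (69 names at more than 1 locus, in 153 rows). The pseudocount, 40 FPKM, was the rounded median of each library's 10th percentile among values above 0. Testing required a value above 0 in 3 or more libraries and an average of 80 FPKM or higher. Reads were recovered in steps of 0.01 within a tolerance of 0.0001. Across libraries 65.4% to 75.0% of the rows above 0 held a whole number of reads, so reads matching several places had been divided. limma 3.58.1 in R 4.3.3 was fitted to all 12 libraries with a variance trend on the mean level and moderation by empirical Bayes (degrees of freedom 8 residual, 7.584 prior), two-sided, with Benjamini-Hochberg adjustment over 366 names. Quantities per library were compared with an exact two-sided permutation test, 3 against 3. The fit was also run on simulated libraries with the same spread in every group. The real groups differ in spread, so that run cannot vouch for the results here. Tables and figures used Python 3.11.15, numpy 2.4.6, pandas 2.3.3, scipy 1.17.1 and matplotlib 3.10.9.

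The members, lists and naming rule were chosen with earlier results of these data known. The rule took, among names above the median level, the 12 largest passing folds each way. Where fewer than 5 passed in a direction, it took the 5 smallest p-values there at any level. It then took from each list the passing members and the 4 of highest level, and the 10 names of highest level overall. Not every name it took is printed here. miR-142-3p, miR-141-5p, miR-451-5p, miR-144-3p, miR-144-5p, miR-802-5p, miR-499-5p and the untested names were described after their values were seen. Alternatives varied the pseudocount, filter, scaling, trend, depth, libraries and a red-cell covariate.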

Additional observations from a re-analysis of the deposited data

How the results depend on the processing

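The comparison gave 9 passing microRNAs, 9 higher and 0 lower, with a median log2 fold change of 0.12 over all tested. The count passing, all of them higher, was 3 in a fit of the 6 single-drug libraries alone, 4 after thinning to the shallowest library, 0 with the red-cell index as a covariate and 0 without DEX2 and DEX3. Leaving out single libraries gave 3 to 27 passing, 3 to 25 higher and 0 to 2 lower, and a median of 0.04 to 0.20; the 27 were without DEX1. Median-of-ratios scaling gave 2 lower and a median of -0.0357, and quantile normalization a median of -0.0318. Rescaling without miR-191a-5p gave a median of -0.0740 over 383 names. Under the other settings tried (pseudocount, filter on the mean, erythrocyte list left out, trend, voom, rows kept apart) 6 to 10 passed. The sign of miR-122-5p turned with the red-cell covariate (0.7685), without DEX2 (0.0451), without DEX3 (0.1016) and without both (0.7221), its range with 1 library left out being -0.5755 to 0.1016; that of miR-144-3p turned without DEX2 and DEX3 (-0.1202) and that of miR-92a-3p with quantile normalization (-0.1407). Of the 9 that passed, 8 kept their sign under 27 alternatives and miR-200a-5p under the 26 that tested it, and the causes of these shifts were not tested. No paired analysis was possible because the columns carry numbers that do not match the replicate numbers of the titles. Depth limits what can be seen: 1 read is worth 102 to 113 FPKM in the 2 shallowest dextromethorphan libraries.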
